A study of Mus musculus with 3 samples.

Results

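Proteasome subunits and activators were described through 43 gene names, taken by name from the array's annotation as those starting with Psma, Psmb, Psmc, Psmd or Psme followed by a number. They are 43 of 27951 gene names on the array and hold 64 of the 41157 probes tested, and each gene is represented by its brightest probe, the one with the highest mean log2 intensity over both dyes and 3 arrays. By role, 18 are core subunits (8 of the α ring, 7 constitutive and 3 inducible ones of the β ring), 17 are regulatory subunits (6 ATPases and 11 non-ATPases), 3 are chaperones that assemble the regulatory particle and 4 are activators. The last name, *Psmc3ip*, shares the letters but encodes a protein of meiotic recombination. Gene expression was measured in mast cell progenitors (MCps) grown from the marrow of 3 WT mice and of 3 *p85α−/−* mice, which lack p85α, a regulatory subunit of phosphatidylinositol 3-kinase that the gene *Pik3r1* encodes. Low density mononuclear cells of each mouse were grown with IL-3 at 10 ng/mL for 7 days, cells carrying KIT and the IgE receptor were sorted, and all of them then received the KIT ligand SCF at 100 ng/mL for 48 hours, so that both genotypes share every treatment and no unstimulated culture was compared. The few sorted cells made PCR amplification of the cDNA necessary before labeling. Each of 3 arrays on 1 slide carried a WT culture in Cy3 and a *p85α−/−* culture in Cy5, and no array had the dyes exchanged, so genotype and dye cannot be told apart in any value below. The age and sex of the mice are not given in the sources used here.

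The proteasome degrades proteins that carry ubiquitin chains. Its barrel-shaped core is closed at both ends by rings of α subunits, whereas the rings of β subunits inside hold the proteolytic sites, and interferon-inducible β subunits can replace the constitutive ones to form the immunoproteasome, which supplies peptides for presentation on MHC class I molecules. The regulatory particle binds ubiquitin chains, removes them and unfolds the substrate with a ring of ATPases, and the activators are ubiquitin-independent caps that open the core.

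*Pik3r1*, the gene that encodes p85α, was read first to check the labels. Its brightest probe (chromosome 13, 98794799 to 98794858, as the array's annotation places it without naming a genome build) had log2 intensities of 9.25, 8.89 and 8.36 in WT replicates 1, 2 and 3, and of 10.74, 8.86 and 8.69 in the *p85α−/−* replicates. The values of both genotypes overlapped on this probe, where *p85α−/−* over WT gave a log2 ratio of 0.59 ± 0.79 (SD, n = 3, adjusted p = 0.908 by limma). The ratio was 1.34 with median centring, and 0.15, 0.91 and 0.73 without replicates 1, 2 and 3. At the other 3 probes the mean ratio was −0.58, 0.32 and −0.04. The probe at −0.58 (chromosome 13, 98797997 to 98799039) was lower in *p85α−/−* on each array, at −1.04, −0.31 and −0.38, without overlap between the genotypes (adjusted p = 0.908 by limma), whereas the probe at 0.32 (chromosome 13, 98790149 to 98790208) was higher on each array, at 0.19, 0.53 and 0.25, with overlap (adjusted p = 0.908 by limma), and the mean over all 4 probes was 0.075. *Pik3r1* also encodes the shorter subunits p55α and p50α, and the sources used here do not say whether any probe lies in the deleted part, so these probes do not settle the genotypes and the groups are called cultures labeled WT and *p85α−/−*.

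Of the 43 members, 31 had a mean log2 ratio of *p85α−/−* over WT above 0, or 72.1%, against 43.0% of all 27951 gene names. The median log2 ratio was 0.51 over the members and −0.07 over all gene names, and on replicates 1, 2 and 3 the members' median was 0.56, 1.05 and 0.53. When the mean over all probes of each gene was used, it was 0.28 with 27 of 43 above 0, and without replicate 2 it was 0.79. The mean ratio of the members ran from −1.61 for the chaperone gene *Psmd9* to 3.67 for *Psmb6*, which encodes a catalytic β subunit. In all, 11 members were higher in cultures labeled *p85α−/−* on all 3 arrays, against 11.8% of all gene names, and 1 member, *Psmd9*, was lower on all 3, against 14.2%, although its other probe was higher on all 3. No member reached an adjusted p under 0.05 by limma, nor did any probe (0% of gene names, lowest adjusted p = 0.763). At an unadjusted p under 0.05, limma gave 7 members and 1829 probes, whereas the methods' t-test gave 5 members unpaired and 4 paired and also 0 probes after adjustment. Each of the 7 members was also past 1.5-fold, the methods' threshold of size, and higher in cultures labeled *p85α−/−*, which is 16.3% of the members against 3.14% of all gene names. All 1829 probes were past 1.5-fold too, so in this fit the threshold of size removed none. Being past both thresholds here says no more than the unadjusted p. No member was past both thresholds in the lower direction, against 2.08% of all gene names. The values of the genotypes did not overlap for 7 members, all higher in cultures labeled *p85α−/−*. Of all 27951 gene names, 1242 did not overlap in the higher and 1800 in the lower direction. These shares are read as a description, because members of a complex are not independent and the members were not tested as a list.

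The SD of the log2 ratio between arrays was larger than the size of the mean for 32 of the 43 members (74.4%), close to the 79.0% of all gene names, and its median was 1.61, against 0.73 over all gene names. Across the 43 members, Pearson's r of the log2 ratio was −0.12 for replicates 1 and 2, 0.24 for 1 and 3, and 0.05 for 2 and 3, so that a member high on 1 array was often not high on another. Over all gene names the same values were 0.01, 0.20 and −0.04, and genes are not independent replicates. All members were well above background in WT on all 3 arrays, and 41 of 43 were so in both genotypes, the exceptions being *Psmd1* and *Psmd13*, which were well above background on 2 of 3 arrays in *p85α−/−*. Among the 19241 gene names that were well above background in both genotypes on every array, 3.72% were past both thresholds in the higher direction and 40.2% had a mean ratio above 0. When quantile normalization was replaced by median centring, which sets the median log2 ratio of each array to a common zero, the median over all gene names was 0.17, that of the members was 1.19 above it, and 39 of 43 members lay above it. In the quantile-normalized values the members' median was 0.58 above that of all gene names, and 33 members lay above it. Of the calls over all gene names, 60.2% were higher in cultures labeled *p85α−/−* with quantile normalization and 91.8% with median centring, but 45.8% without replicate 2, where 4.28% of all gene names were past both thresholds in the higher direction and 5.05% in the lower.

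**Figure D1:**
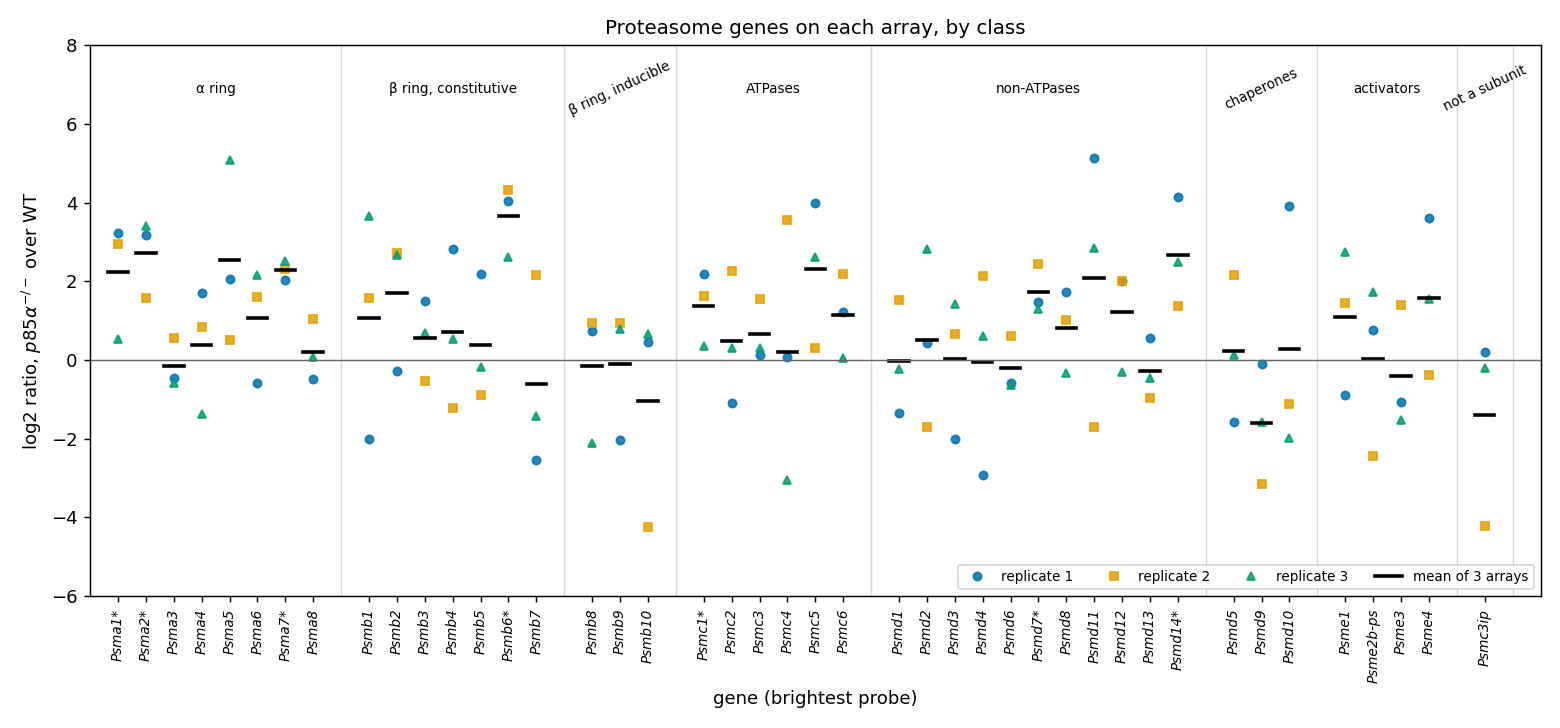
Log2 ratio of *p85α−/−* over WT (vertical axis) of the brightest probe of each of the 43 members (horizontal axis), grouped by class, on each of 3 arrays (points) with their mean (bars), where an asterisk marks the 7 members past 1.5-fold and an unadjusted p under 0.05. Most α ring genes and the ATPase genes have means above 0, the 3 inducible β genes have means below 0 here but above 0 with median centring, and points of 1 gene often lie on both sides of 0.

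The core subunits had a median log2 ratio of 0.64, the regulatory subunits of 0.66 and the activators of 0.56, values closer to each other than the same medians were between arrays. This holds for the brightest probes, whereas over the mean of all probes of each gene the medians were 0.63, 0.17 and 0.50, with 12 of 18, 10 of 17 and 3 of 4 above 0. On replicates 1, 2 and 3 the core median was 1.12, 1.0 and 0.68, the regulatory median 0.56, 1.52 and 0.31 and the activator median −0.06, 0.51 and 1.64. The ratio was above 0 for 13 of 18 core subunits, 13 of 17 regulatory subunits and 3 of 4 activators. Past both thresholds in the higher direction were 4, 3 and 0 of them (22.2%, 17.6% and 0%, against 3.14% of all gene names). No difference between the classes was tested. With median centring the medians were 1.68, 1.32 and 1.48 above that of all gene names, and with 1 replicate left out the regulatory median was 0.92 without replicate 1, 0.64 without replicate 2 and 1.38 without replicate 3. The activator median was 0.26 without replicate 1, 1.09 without replicate 2 and 0.23 without replicate 3.

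The α ring genes, whose products gate the entry to the core, had a median log2 ratio of 1.65, with 7 of 8 above 0. Past both thresholds were 3 (37.5%, against 3.14% of all gene names). On single arrays the median of the 8 was 1.86, 1.31 and 1.35. *Psma2* (chromosome 13, 13991557 to 13991616) had log2 intensities of 9.09, 8.34 and 8.63 in WT and of 12.27, 9.91 and 12.03 in *p85α−/−* replicates 1, 2 and 3. Every *p85α−/−* value lay above every WT value, with a log2 ratio of 2.72 ± 1.0 (SD, n = 3, adjusted p = 0.851 by limma). *Psma7* (chromosome 2, 180537360 to 180537420) had 10.70, 10.01 and 10.14 in WT and 12.73, 12.34 and 12.65 in *p85α−/−*. Here too the genotypes did not overlap, and the ratio of 2.29 ± 0.24 (SD, n = 3, adjusted p = 0.763 by limma) varied less between arrays than that of *Psma2*. *Psma1* (chromosome 7, 110180520 to 110180580) had 7.64, 7.25 and 6.70 in WT and 10.86, 10.20 and 7.23 in *p85α−/−*. On replicate 3 the *p85α−/−* value was below 2 of the WT values, and the ratio was 2.23 ± 1.48 (SD, n = 3, adjusted p = 0.908 by limma). Past both thresholds over 3 arrays, *Psma1* was no longer so without replicate 1 (1.74) or without replicate 2 (1.88).

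The lowest gene of the α ring was *Psma3* (chromosome 12, 68922646 to 68927208), with log2 intensities of 9.52, 9.60 and 9.48 in WT and of 9.06, 10.17 and 8.91 in *p85α−/−*. Its ratio of −0.15 ± 0.63 (SD, n = 3) was 0.41 with median centring and 0.058 without replicate 3, so it had no settled direction. *Psma5* had a mean ratio of 2.55 with an SD of 2.32, with replicate 3 at 5.07, and 1.29 without that replicate. *Psma6* had a mean of 1.06, with replicate 1 below 0 at −0.59, and 0.51 without replicate 3. Both were past both thresholds with median centring, at 3.75 and 1.95. *Psma4* had 0.39 at its brightest probe and 0.69 at the other, and on both probes replicate 3 was below 0, whereas without replicate 1 the brightest was at −0.26. *Psma8*, the testis-specific counterpart of *Psma7*, had 0.21 ± 0.78 (SD, n = 3), well within the spread between arrays, and −0.20 without replicate 2.

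In the β ring, the 7 constitutive genes had a median log2 ratio of 0.71, with 6 above 0. Of them, 1 was past both thresholds (14.3%, against 3.14% of all gene names). The median was 0.36 without replicate 1, 1.101 without replicate 2 and 1.91 with median centring. The gene past both thresholds was *Psmb6* (chromosome 11, 70609086 to 70609145), the subunit with caspase-like activity, which had log2 intensities of 10.78, 8.91 and 11.23 in WT and of 14.84, 13.25 and 13.87 in *p85α−/−*. The genotypes were far apart on each array, at log2 ratios of 4.06, 4.33 and 2.63, and the mean of 3.67 ± 0.91 (SD, n = 3, adjusted p = 0.763 by limma) was the highest of the 43 members. *Psmb5* (chromosome 14, 49480764 to 49480823), the subunit with chymotrypsin-like activity, had 9.64, 12.05 and 11.39 in WT and 11.84, 11.16 and 11.23 in *p85α−/−*. Only replicate 1 was higher in *p85α−/−*, and the ratio of 0.38 ± 1.61 (SD, n = 3, adjusted p = 0.949 by limma) was −0.52 without it. *Psmb7* (chromosome 2, 38620757 to 38641176), the subunit with trypsin-like activity, had 12.58, 10.34 and 12.37 in WT and 10.03, 12.49 and 10.94 in *p85α−/−*. Replicate 2 went the other way from replicates 1 and 3, and the ratio of −0.61 ± 2.45 (SD, n = 3, adjusted p = 0.944 by limma) was 0.46 with median centring, 0.36 without replicate 1 and −1.99 without replicate 2, where it was past both thresholds in the lower direction. The 3 catalytic genes thus had mean ratios on both sides of 0, and no difference between them was tested.

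The other constitutive β genes encode subunits without a proteolytic site. The mean log2 ratio of *Psmb2* was 1.70, and its values on replicates 2 and 3, 2.72 and 2.67, were above 0. *Psmb1* had 1.08, made up of −2.01, 1.58 and 3.66 on the 3 arrays. For *Psmb4* the mean was 0.71 with an SD of 2.04. The probes of *Psmb3* went opposite ways, at 0.56 for the brightest and −0.58 for the other, and the brightest was at 0.087 without replicate 1. *Psmb4* was below 0 without replicate 1, at −0.35, as *Psmb1* was without replicate 3, at −0.22. Without replicate 1, *Psmb1* and *Psmb2* were both past both thresholds in the higher direction, as *Psma6* of the α ring was.

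None of the 3 inducible β genes had a mean ratio above 0, but all 3 were above 0 with median centring, and the SD was larger than the size of the mean for each. *Psmb8* (chromosome 17, 32280668 to 32280727), which replaces *Psmb5* in the immunoproteasome, had log2 intensities of 11.18, 9.91 and 10.28 in WT and of 11.92, 10.84 and 8.18 in *p85α−/−*. It was higher in *p85α−/−* on 2 arrays and lower on replicate 3, with a ratio of −0.14 ± 1.70 (SD, n = 3, adjusted p = 0.986 by limma), which was 0.67 with median centring and 0.84 without replicate 3. Its other probe had −0.72. *Psmb9* (chromosome 17, 32262147 to 32262206), the counterpart of *Psmb6*, had 12.15, 10.36 and 11.31 in WT and 10.11, 11.31 and 12.09 in *p85α−/−*. Replicate 1 alone was lower in *p85α−/−*, and the ratio of −0.10 ± 1.68 (SD, n = 3, adjusted p = 0.991 by limma) was 0.98 with median centring and 0.87 without that replicate. *Psmb10* (chromosome 8, 104534630 to 104534690), the counterpart of *Psmb7*, had 12.52, 14.80 and 12.11 in WT and 12.98, 10.56 and 12.77 in *p85α−/−*. Its ratio of −1.04 ± 2.78 (SD, n = 3, adjusted p = 0.917 by limma) rested on replicate 2, at −4.25, and was 0.25 with median centring and 0.56 without that replicate. The pair *Psmb6* and *Psmb9* had mean ratios of 3.67 and −0.10, whereas *Psmb5* and *Psmb8*, at 0.38 and −0.14, and *Psmb7* and *Psmb10*, at −0.61 and −1.04, were closer together than their spread between arrays.

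All 6 ATPase genes of the regulatory particle had a mean log2 ratio above 0, with a median of 0.91. Of them, 4 were higher in *p85α−/−* on all 3 arrays (66.7%, against 11.8% of all gene names). The median was 0.43 without replicate 2, where *Psmc2* and *Psmc4* were below 0, 1.77 both without replicate 3 and with median centring, and 0.41 over the mean of all probes, where 4 of 6 were above 0. These subunits form the ring that unfolds substrates. *Psmc1* (chromosome 12, 97618413 to 97618472) had log2 intensities of 8.27, 8.48 and 9.47 in WT and of 10.45, 10.10 and 9.83 in *p85α−/−*. The genotypes did not overlap, and the ratio was 1.39 ± 0.93 (SD, n = 3, adjusted p = 0.908 by limma). It was past both thresholds over 3 arrays, but not without replicate 1 (0.99), without replicate 2 (1.27) or with the scanner software's processed signals (1.69). *Psmc5* (chromosome 11, 106371920 to 106372100) had the highest ratio of the ATPase genes, with 8.51, 7.43 and 10.08 in WT and 12.51, 7.73 and 12.69 in *p85α−/−*. Replicate 2 differed little between genotypes, and the ratio was 2.30 ± 1.87 (SD, n = 3, adjusted p = 0.908 by limma). It was 1.46 without replicate 1, and was past both thresholds without replicate 2 (3.31), with median centring (3.36), without background subtraction (2.44), with the processed signals (2.65), with dim probes left out (2.30) and over the mean of both probes (1.66), the other of which had 1.02. *Psmc4* (chromosome 7, 24976129 to 24976370) was the lowest, with 7.63, 8.05 and 11.42 in WT and 7.72, 11.61 and 8.37 in *p85α−/−*. Its ratio of 0.20 ± 3.30 (SD, n = 3, adjusted p = 0.990 by limma) was −1.48 without replicate 2 and −0.33 as the mean of both probes. *Psmc6* had a mean of 1.16 and was higher in *p85α−/−* on each array, but its dimmer probe had −0.82. It was past both thresholds with loess normalization (1.18), with median centring (2.18) and without replicate 3 (1.71), and was at 0.64 without replicate 2. *Psmc3* had 0.66 and was also higher on each array, with 0.21 without replicate 2 and, past both thresholds, 1.49 with median centring. *Psmc2* had 0.49 at the brightest probe and −0.51 at the other, and the brightest was at −0.39 without replicate 2.

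Of the 11 non-ATPase genes, 7 had a mean ratio above 0, with a median log2 ratio of 0.51. Past both thresholds were 2 (18.2%, against 3.14% of all gene names). The median was 0.088 without replicate 3, 0.15 with loess normalization, 0.032 over the mean of all probes and 1.32 with median centring. *Psmd14* (chromosome 2, 61727999 to 61730582), which encodes the enzyme that removes ubiquitin chains from bound substrates, had log2 intensities of 8.73, 8.29 and 9.60 in WT and of 12.87, 9.67 and 12.09 in *p85α−/−*. Every *p85α−/−* value lay above every WT value, with a ratio of 2.68 ± 1.39 (SD, n = 3, adjusted p = 0.908 by limma), and without replicate 3 it was 2.77 but no longer past both thresholds. The other probe of *Psmd14* had 7.05, 6.88 and 7.87 in WT and 8.92, 8.78 and 9.11 in *p85α−/−*. With a ratio of 1.67 ± 0.37 (SD, n = 3, adjusted p = 0.813 by limma) it too was past both thresholds, the only gene among the 17 with several probes for which more than 1 probe was. *Psmd7* (chromosome 8, 106181360 to 106181420), whose product pairs with that of *Psmd14*, had 7.76, 7.97 and 9.05 in WT and 9.23, 10.42 and 10.35 in *p85α−/−*. The genotypes did not overlap, at a ratio of 1.74 ± 0.62 (SD, n = 3, adjusted p = 0.908 by limma), whereas the dimmer probes gave 0.14 and 0.72. The lowest was *Psmd13* (chromosome 7, 137303820 to 137304290), with 8.83, 9.98 and 7.35 in WT and 9.39, 9.02 and 6.89 in *p85α−/−*. Its ratio of −0.29 ± 0.77 (SD, n = 3, adjusted p = 0.927 by limma) was 0.047 with median centring and 0.049 without replicate 2.

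Other non-ATPase genes varied widely between arrays. *Psmd11* had a mean log2 ratio of 2.09 with an SD of 3.47, from 5.13 on replicate 1 to −1.70 on replicate 2, and without replicate 2 it was past both thresholds. *Psmd12* had 1.23 and *Psmd8* had 0.81, and in both replicate 3 was the 1 array below 0, so that without it both were past both thresholds. With median centring *Psmd12* was so too (2.06), and without replicate 1 *Psmd8* was at 0.34 and *Psmd11* at 0.57. The dimmer probes had −0.60 for *Psmd11* and −0.14 and 0.10 for *Psmd12*, each well above background on 1 of 3 arrays in each genotype. *Psmd2*, a scaffold subunit, had 0.51 at its brightest probe and −2.49 at the other. *Psmd3* had 0.03 and *Psmd1*, the other large scaffold, had −0.02. *Psmd6* had −0.20. *Psmd4*, a ubiquitin receptor, had −0.05 at its brightest probe and −1.27 at the other, which was lower on all 3 arrays and past both thresholds in that direction. With median centring *Psmd1*, *Psmd4* and *Psmd6* were above 0, at 0.28, 1.30 and 0.080, and *Psmd3* was below 0 with loess normalization, at −0.093. Leaving out replicate 3 turned the sign for *Psmd1*, *Psmd2*, *Psmd3* and *Psmd6*, and leaving out replicate 1 that for *Psmd1* and *Psmd4*. Without replicate 2 *Psmd3* was at −0.29. Over the 17 genes with several probes, the mean ratios of all probes shared a sign for 7.

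The 3 chaperone genes had log2 ratios with a median of 0.24, which was −1.55 without replicate 1, −0.72 without replicate 2, 0.060 with loess normalization, 0.032 with the processed signals and 0.57 with median centring. *Psmd10* (chromosome X, 135668420 to 135668480), known as gankyrin, was the highest of them, with log2 intensities of 7.71, 9.68 and 9.34 in WT and of 11.64, 8.57 and 7.36 in *p85α−/−*. Replicate 1 was higher and the other 2 lower, so that the ratio of 0.28 ± 3.19 (SD, n = 3, adjusted p = 0.985 by limma) was −1.55 without replicate 1, past both thresholds in the lower direction, 0.97 without replicate 2 and 1.41 without replicate 3. *Psmd9* (chromosome 5, 122475370 to 122477510) had 7.80, 11.69 and 9.74 in WT and 7.70, 8.54 and 8.16 in *p85α−/−*. It was lower on each array, by a ratio of −1.61 ± 1.52 (SD, n = 3, adjusted p = 0.908 by limma), and was past both thresholds without replicate 1 (−2.36) and at −0.84 without replicate 2, whereas its other probe was higher on each array, at 0.33, 1.18 and 0.15 with a mean of 0.55, so that the probes went opposite ways on every array, and the mean of both was −0.53. *Psmd5* had 0.24 with an SD of 1.87, and −0.72 without replicate 2. *Psmc3ip*, which is not a subunit, had −1.40 at its brightest probe, where replicate 2 alone was at −4.22, and 0.39 at the other. Without replicate 2 the brightest was at 0.0091.

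Of the activators, none was past both thresholds, and the SD was larger than the size of the mean for all 4. *Psme1* (chromosome 14, 50448660 to 50448719) encodes a subunit of the interferon-inducible cap PA28αβ and had log2 intensities of 9.46, 8.46 and 9.77 in WT and of 8.58, 9.92 and 12.51 in *p85α−/−*. Replicate 1 was lower in *p85α−/−* and the others higher, with a ratio of 1.1 ± 1.84 (SD, n = 3, adjusted p = 0.908 by limma), and it was 2.10 and past both thresholds without replicate 1 but 0.29 without replicate 3. The partner subunit was represented by probes named *Psme2b-ps* (brightest on chromosome 14, 50454846 to 50454905), a pseudogene name. RefSeq assigns part of the transcripts listed for these probes to *Psme2*, so that the gene and the pseudogene cannot be told apart. The brightest of them had 13.66, 14.38 and 12.82 in WT and 14.42, 11.94 and 14.55 in *p85α−/−*. Its ratio of 0.02 ± 2.19 (SD, n = 3, adjusted p = 0.999 by limma) was −0.21 with loess normalization and −0.026 with the processed signals. It was −0.36 without replicate 1 and −0.84 without replicate 3 but 1.25 without replicate 2, and the other probe had 1.46.

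*Psme3* (chromosome 11, 101431910 to 101431970), which encodes the nuclear cap PA28γ, had log2 intensities of 12.12, 10.97 and 13.14 in WT and of 11.06, 12.37 and 11.61 in *p85α−/−*. Replicate 2 went the other way from the rest, and the ratio of −0.40 ± 1.57 (SD, n = 3, adjusted p = 0.944 by limma) was 0.79 with median centring, 0.17 without replicate 3 and −1.30 without replicate 2, where it was past both thresholds in the lower direction. *Psme4* (chromosome 11, 30832174 to 30832233), which encodes the large cap PA200, had 10.58, 12.48 and 12.05 in WT and 14.17, 12.10 and 13.60 in *p85α−/−*. The ratio was 1.59 ± 1.99 (SD, n = 3, adjusted p = 0.908 by limma) and, without replicate 2, 2.58 and past both thresholds, but 0.58 without replicate 1. The other 3 probes of *Psme4* had mean ratios of −0.05, −0.35 and −0.10, but 2 of them, those at −0.35 and −0.10, were well above background on 1 of 3 arrays in each genotype. Over the mean of all 4 probes *Psme4* had 0.27.

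**Figure D2:**
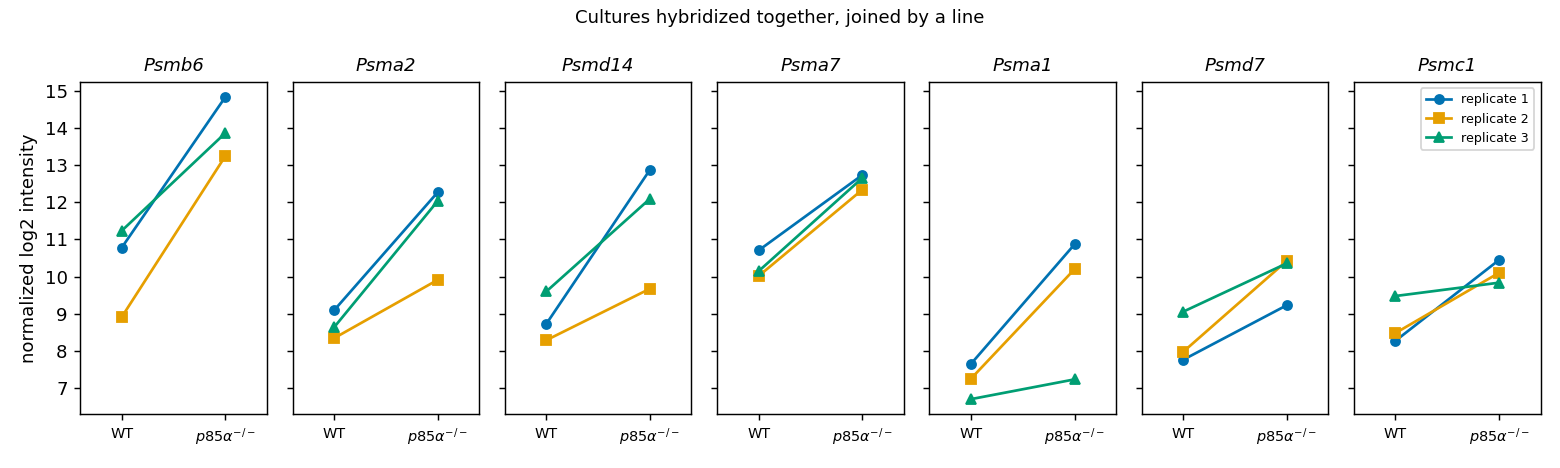
Normalized log2 intensity (vertical axis) of the 7 members past 1.5-fold and an unadjusted p under 0.05, in the WT and *p85α−/−* cultures (horizontal axis) of each replicate, with a line joining the cultures of 1 array. All lines run upward from WT to *p85α−/−*, where the choice of these genes by size and p favors lines that run the same way but does not set which way, and *Psma7* has the most similar lines, with ratios between 2.03 and 2.51.

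Over the 7 alternatives that moved the values of *Psma2*, *Psma7* and *Psmb6*, and the 8 that moved those of *Psmd7*, these 4 stayed past both thresholds, with mean log2 ratios from 2.37 to 3.74 for *Psma2*, from 2.18 to 3.35 for *Psma7*, from 3.34 to 4.89 for *Psmb6* and from 0.87 to 2.30 for *Psmd7*. *Psmd14* was so in 7 of 8, *Psma1* in 5 of 7 and *Psmc1* in 4 of 7. Keeping outlier spots and leaving out dim probes left the ratios of all 7 members as they were, as did the mean over all probes for the genes with 1 probe, and these are not counted. In 3 more alternatives, which change the test and not the values, *Psma1* was no longer past both thresholds in limma without the pairing by array, nor were *Psma1* and *Psmd14* in the methods' t-test unpaired, nor *Psma1*, *Psmc1* and *Psmd14* in its paired form. The first 4 encode 2 α subunits, a catalytic β subunit and a non-ATPase subunit of the regulatory particle.

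Genes that work with the proteasome were read from lists of further subunits and assembly factors, ubiquitin and its delivery, transcription factors and peptide presentation. Of 34 such genes found, 20 had a mean ratio above 0 (58.8%, against 43.0% of all gene names), with a median log2 ratio of 0.32. Past both thresholds in the higher direction were 7 (20.6%, against 3.14% of all gene names) and in the lower 0, against 2.08%. The median was 0.59 with median centring, 0.56 with the processed signals and 0.21 over the mean of all probes. *Tap2*, a subunit of the transporter that carries proteasomal peptides into the endoplasmic reticulum, had log2 intensities of 8.61, 8.72 and 8.80 in WT and of 11.02, 10.82 and 12.17 in *p85α−/−*. The genotypes did not overlap, at a ratio of 2.63 ± 0.66 (SD, n = 3, adjusted p = 0.763 by limma). *B2m*, the light chain of MHC class I, had 7.11, 7.16 and 7.28 in WT and 8.63, 11.01 and 8.90 in *p85α−/−*, a ratio of 2.33 ± 1.32 (SD, n = 3, adjusted p = 0.908 by limma). Both were past both thresholds with any 1 replicate left out, but *B2m* was not over the mean of all its probes (0.77). The other genes of this list, *Tap1*, *Tapbp* and *Erap1* (named *Arts1* on the array), had mean ratios of −0.06, −0.28 and −0.13, which were 0.26, 0.86 and 0.11 with median centring. Without replicate 2 they were 0.045, 0.505 and 1.32. *Tapbp* was 0.25 without replicate 1 and, past both thresholds in the lower direction, −1.60 without replicate 3, *Erap1* was −1.39 without replicate 1, and *Tap1* was 0.0085 with the scanner software's processed signals. In gene order on chromosome 17 (RefSeq, GRCm38.p6), *Psmb8* lies between *Tap1* and *Tap2* and *Psmb9* next to *Tap1*. Of these 4 neighbors, *Tap2* alone had a mean ratio far from 0 with quantile normalization over 3 arrays. *Psmb8* and *Psmb9* had 0.67 and 0.98 with median centring. With 1 replicate left out, *Psmb8* was 0.84 without replicate 3 and *Psmb9* 0.87 without replicate 1.

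Among further subunits, *Shfm1*, a small subunit of the regulatory particle, had log2 intensities of 11.72, 9.67 and 10.65 in WT and of 12.36, 12.24 and 13.71 in *p85α−/−*, a ratio of 2.09 ± 1.28 (SD, n = 3, adjusted p = 0.908 by limma). *AI314180*, the mouse name of the adaptor Ecm29, had 12.24, 10.16 and 9.20 in WT and 13.15, 11.54 and 12.87 in *p85α−/−*, a ratio of 1.99 ± 1.47 (SD, n = 3, adjusted p = 0.908 by limma). *Uchl5*, a deubiquitinase bound to the regulatory particle, had 10.05, 10.66 and 10.69 in WT and 12.16, 11.47 and 12.50 in *p85α−/−*, a ratio of 1.58 ± 0.67 (SD, n = 3, adjusted p = 0.908 by limma). All of these were higher in *p85α−/−* on each array, but each lost its place past both thresholds under some alternatives. *Shfm1* was not past them without replicate 2 (1.85) or 3 (1.60), *AI314180* without replicate 2 (2.29) or 3 (1.15), with loess normalization (1.88), with the processed signals (2.04) or over the mean of all probes (0.50), and *Uchl5* without replicate 1 (1.31) or 3 (1.46) or with the processed signals (1.65). Of the 10 genes of this list, 7 had a mean ratio above 0. *Adrm1* was lower in *p85α−/−* on each array, at −0.19, −0.82 and −2.20 with a mean of −1.07, and was 0.072 with median centring. *1810042K04Rik*, the array's name of *Psmg3*, had −1.03, which was 0.42 without replicate 2 and 0.23 with median centring. Of the ubiquitin genes, *Ubb*, which encodes polyubiquitin, had 12.52, 12.59 and 13.26 in WT and 14.04, 14.88 and 13.73 in *p85α−/−*, a ratio of 1.43 ± 0.91 (SD, n = 3, adjusted p = 0.908 by limma), and was not past both thresholds without replicate 1 (1.38) or 2 (1.0) or with the processed signals (1.48). *Ufd1l*, a cofactor of the segregase p97, had 7.08, 7.58 and 10.24 in WT and 7.97, 8.38 and 11.72 in *p85α−/−*, a ratio of 1.06 ± 0.37 (SD, n = 3, adjusted p = 0.908 by limma), and was not so without replicate 1 (1.14) or 3 (0.84), with loess normalization (0.90) or over the mean of all probes (0.21). Of the 13 genes for ubiquitin and its delivery, 8 had a mean ratio above 0. *Rad23b* had −1.67, the lowest of the 34 genes, with 0.47, −3.16 and −2.33 on replicates 1, 2 and 3. *Ubqln1* was lower on each array, at −0.25, −1.78 and −0.89 with a mean of −0.97. Without replicates 1, 2 and 3 in turn, 4, 6 and 4 of the 34 genes were past both thresholds in the higher direction and 1, 2 and 1 in the lower. These are 11.8%, 17.6% and 11.8% in the higher direction, against 2.94%, 4.28% and 3.23% of all gene names. In the lower direction they are 2.94%, 5.88% and 2.94%, against 1.28%, 5.05% and 1.53%.

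*Nfe2l1*, the transcription factor known to raise proteasome genes when proteasomes are impaired, had log2 intensities of 9.99, 9.85 and 10.09 in WT and of 11.84, 9.40 and 11.95 in *p85α−/−*. Replicates 1 and 3 were higher in *p85α−/−* and replicate 2 was not, and the ratio was 1.09 ± 1.33 (SD, n = 3, adjusted p = 0.908 by limma). It was past both thresholds without replicate 2 (1.85) and with median centring (2.23), and was 0.71 without replicate 1 and 0.70 without replicate 3. The list of transcription factors that it belongs to had 3 of 6 genes above 0 and a median of −0.07, which was 0.37 with median centring, 0.21 without replicate 1, 0.024 without replicate 2 and 0.20 over the mean of all probes. In the same list *Irf1* had a mean ratio of −1.60 (adjusted p = 0.908 by limma), with −2.88, 0.17 and −2.08 on replicates 1, 2 and 3. Its ratio was −0.72 with median centring and −0.96 without replicate 1. Without replicate 2 it was −2.48, and 1 gene of the list was then past both thresholds in the lower direction.

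Markers of cell types were read on the same arrays, since in bulk cultures fewer cells of a type and less RNA per cell cannot be told apart. Of 14 mast cell markers, 13 had a mean log2 ratio above 0, 4 (28.6%, against 3.14% of all gene names) were past both thresholds in the higher direction and 0 in the lower, and the median was 1.21, which was 2.07 with median centring, 0.71 without replicate 2 and 0.81 without replicate 3, where 9 of 14 were above 0. Their mean log2 intensities were 10.89, 10.33 and 10.18 in the WT and 11.63, 11.59 and 11.34 in the *p85α−/−* replicates. The brightest probe of the list, that of the chymase gene *Cma1*, had 13.20, 12.21 and 14.59 in WT and 16.65, 15.52 and 14.93 in *p85α−/−*. *Kit*, whose product was used for the sort, had 10.10, 8.07 and 8.58 in WT and 11.55, 10.26 and 11.11 in *p85α−/−*. The sort also used the IgE receptor, of which *Fcer1a* and *Ms4a2* encode chains. *Fcer1a* was lower in *p85α−/−* on replicate 1 (−2.99) but higher on replicates 2 (3.32) and 3 (1.39), averaging 0.57. *Ms4a2* and *Mrgprb2* were well above background in WT on 1 of 3 arrays. The marker below 0 was *Mcpt4*, at −0.89, which was higher on replicate 1 (1.85) and lower on replicates 2 (−2.11) and 3 (−2.41). On all 3 arrays, 7 of the 14 mast cell markers were higher and 0 lower. Of 9 neutrophil markers, 6 had a mean ratio above 0, 3 (33.3%) were past both thresholds in the higher direction and 0 in the lower, and the median was 1.64, which was 2.72 with median centring and 0.78 without replicate 3. Their mean log2 intensity was 9.16, 8.49 and 9.25 in WT and 10.91, 8.33 and 11.26 in *p85α−/−*. *Mpo*, the brightest of them, had 12.58, 14.05 and 12.20 in WT and 15.48, 10.68 and 17.59 in *p85α−/−*, so that replicate 2 stood apart from replicates 1 and 3. The granulocyte marker *Csf3r* was well above background on 1 of 3 arrays in each genotype. Macrophage markers had a median of −0.01 over 8 genes, with 4 above 0, basophil markers 0.60 over 4 with 3 above 0, eosinophil markers 0.50 over 5 with 4 above 0, erythroid markers −0.0043 over 6 with 3 above 0 and lymphoid markers −0.01 over 6 with 3 above 0. With median centring the macrophage, basophil, eosinophil, erythroid and lymphoid medians were 0.35, 1.17, 1.15, 0.35 and 0.45. Without replicate 2 the macrophage, erythroid and lymphoid medians were 0.39, 0.17 and 0.037, and without replicate 1 the eosinophil median was 0.092. The macrophage median was also above 0 with loess normalization, without background subtraction, with the processed signals and over the mean of all probes, and the erythroid median with the processed signals. Without replicates 1, 2 and 3 in turn, 4, 2 and 4 mast cell markers and 1, 6 and 1 neutrophil markers were past both thresholds in the higher direction, and 1 mast cell marker was so in the lower without replicate 1. Of all gene names, 2.94%, 4.28% and 3.23% were so in the higher direction, and 1.28% in the lower without replicate 1. The part of cell composition in the proteasome values was not tested.

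The arrays also differed in signal. The median signal was 76.1, 71.5 and 141.2 in WT and 210.9, 517.3 and 206.6 in *p85α−/−* on replicates 1, 2 and 3, and spots well above background made up 72.1%, 69.4% and 85.3% in WT and 77.6%, 93.8% and 77.3% in *p85α−/−*. Replicate 2 thus had the largest gap between the dyes before normalization. The array whose ratio had the other sign than both others was replicate 1 for 14 members, replicate 2 for 12 and replicate 3 for 5, or 32.6%, 27.9% and 11.6% of the members, against 20.2%, 30.6% and 23.2% of all gene names. The part of signal in these values was not tested.

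Promoter sequences from RefSeq (GRCm38.p6) were searched to see what the members share beside their role, with 4 motifs chosen after the values were seen. Windows of 300 bases around the annotated start were held for 35 of the 42 subunit, chaperone and activator genes, and *Psma8*, *Psmb1*, *Psmb2*, *Psmb7*, *Psmc3*, *Psmd3* and *Psmd7* had no entry. On either strand, TGANNNNGC, letters of the element that NRF1 (the product of *Nfe2l1*) is known to bind, occurred in 20 of 35 members (57.1%) and in 45.0% of all 27025 genes with a window. Its narrower form TGACNNNGC, each match of which is also a match of the wider form, occurred in 6 of 35 and in 14.0% of genes. CCAAT occurred in 13 of 35 and in 41.1% of genes, and CCGGAAG, letters that ETS factors bind, in 12 of 35 and in 9.93% of genes. Of the 6 members past both thresholds that had a window, 2 held TGANNNNGC, 1 held TGACNNNGC, 5 held CCAAT and 1 held CCGGAAG. A match is only a match of letters. The windows of *Psmb6* (chr11:70525107-70525406, plus strand) and *Psma7* (chr2:180042415-180042714, minus strand) are shown because, of these 6, they alone held TGANNNNGC. Their matches were thus set by the choice of windows. These 2 also had the lowest adjusted p of the members. Each window runs 5′ to 3′ on the strand of the gene. The TGANNNNGC match is in capitals, at base 242 and at base 292 counted from 1 at the 5′ end.
*Psmb6*: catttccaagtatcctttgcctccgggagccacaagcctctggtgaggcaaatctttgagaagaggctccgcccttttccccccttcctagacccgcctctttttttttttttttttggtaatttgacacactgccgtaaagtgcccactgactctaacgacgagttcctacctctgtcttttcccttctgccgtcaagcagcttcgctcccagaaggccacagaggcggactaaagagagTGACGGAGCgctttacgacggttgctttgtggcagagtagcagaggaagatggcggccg
*Psma7*: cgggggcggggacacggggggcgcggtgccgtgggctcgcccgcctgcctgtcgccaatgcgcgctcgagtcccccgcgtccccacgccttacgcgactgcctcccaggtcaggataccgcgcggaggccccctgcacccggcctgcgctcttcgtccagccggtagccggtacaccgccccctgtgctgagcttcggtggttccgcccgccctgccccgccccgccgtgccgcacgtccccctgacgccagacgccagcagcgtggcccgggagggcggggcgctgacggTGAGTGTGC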

How the data were processed

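Cultures of 3 WT and 3 *p85α−/−* mice were compared, each hybridized with its partner on 1 of 3 arrays. The deposited files hold, for each spot, its mean intensity and a local background median as the authors' scanner software (Agilent Feature Extraction 9.5.1.1) wrote them, not normalized, beside processed intensities corrected for background and dye. The deposited table of log10 ratios, made by the authors from the same arrays, was not used: of 40929 single-spot probes, all carry the log10 ratio of the scanner for replicate 1, but 190 and 226 do so for replicates 2 and 3 (tolerance 1.5e-05). Its column medians were 0, 0.0245 and −0.00306, and its centring is not known. Mean signals were background-corrected with normexp (offset 50), quantile normalized over the 6 channels as the study's methods name, and log2-transformed with limma 3.58.1 (R 4.3.3). Controls and outlier-marked spots were dropped, and spots of a probe were averaged. The log2 ratio of each array was tested with limma (intercept model, eBayes), adjusted by Benjamini-Hochberg over 41157 probes. The fit was also tested on simulated data, and no statement here rests on that outcome. The methods' t-test, limma without the pairing by array, other normalizations, other filters and leaving out each replicate were tried as alternatives. Cultures of the same number come from different mice, and their deviations from the genotype means correlated at 0.0642, −0.0572 and −0.0211 over all probes. The paper speaks of 3 pairs of mice. Whether the number marks such a pair beside the shared array cannot be told from these correlations over 3 arrays. Values per array are given for *Pik3r1*, the catalytic and inducible β genes, the activators, members past 1.5-fold and an unadjusted p under 0.05, the extremes of each class, and pathway genes past both thresholds with *Nfe2l1*. Members and lists were chosen with earlier results of these data known. Accessions of 39 of 43 members were found in RefSeq under the same symbol. Gene names are those of the array, and *Psmg4*, *Paaf1*, *Nlrc5* and *Siglec5* were not found among them. Only 3 arrays limit the precision.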

Additional observations from a re-analysis of the deposited data

How the results depend on the processing

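No alternative gave a member or probe with an adjusted p under 0.05 (0 in each). With median centring 13 members and 11 pathway genes were past both thresholds, against 7 and 7, and the medians of core, regulatory and activator subunits were 1.85, 1.49 and 1.65. Of all gene names, 7.01% were past both thresholds in the higher direction with median centring, against 3.14% with quantile normalization. With median centring the ratio changed sign for *Psmb7* (0.46), *Psmb8* (0.67), *Psmb9* (0.98), *Psmb10* (0.25), *Psme3* (0.79), *Psma3* (0.41), *Psmd1* (0.28), *Psmd4* (1.30), *Psmd6* (0.080) and *Psmd13* (0.047), as it did for *Psme2b-ps* with loess (−0.21) and the processed signals (−0.026), and for *Psmc4* over the mean of its probes (−0.33). Relative to the median of all gene names, which median centring also raised, *Psmd6* and *Psmd13* stayed below it, at −0.089 and −0.12. *Psmd1* and *Psmd4* lay above that median with quantile normalization too, at 0.054 and 0.018. The processed signals gave 4 pathway genes, the methods' t-test 4 unpaired, and its paired form 4 members and 2 pathway genes. Of all gene names, 3.69%, 1.62% and 1.27% were past both thresholds in the higher direction under these alternatives. With no replicate block, limma without the pairing by array gave 6 members past both thresholds in the higher direction, against 2.70% of all gene names. With 1 replicate left out, members past both thresholds in the lower direction numbered 0 to 2, the core median ran from 0.72 to 0.92 and the regulatory median from 0.64 to 1.38. Of all gene names, 1.28%, 5.05% and 1.53% were past both thresholds in the lower direction without replicates 1, 2 and 3. Over the same 3 settings *Psmb5* ran from −0.52 to 1.02, *Psmb7* from −1.99 to 0.36, *Psmb8* from −0.68 to 0.84, *Psmb9* from −0.63 to 0.87, *Psmb10* from −1.89 to 0.56, *Psme2b-ps* from −0.84 to 1.25, *Psme3* from −1.30 to 0.17, *Psma3* from −0.51 to 0.058, *Psmc4* from −1.48 to 1.83, *Psmd10* from −1.55 to 1.41 and *Psmd13* from −0.71 to 0.049. Of the other values of single genes followed, 251 kept their direction and their side of both thresholds (among them values that keeping outlier spots, leaving out dim probes or averaging probes could not move), 13 passed both only under the alternative and 24 no longer did. The causes were not tested. The deposited table was not run as an alternative, since few of its values for replicates 2 and 3 equal the scanner's log10 ratio of the probe named on the row (190 and 226 of 40929, tolerance 1.5e-05), and why was not tested. In WT, 69.4% to 85.3% of spots were well above background, and dim probes are limited by it.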
